A study of Capra hircus with 6 samples.

Results

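Lipid droplet coat and lipolysis genes were followed in intramuscular preadipocytes of the goat, precursor cells of the fat held within muscle. They were found by gene name in the table of FPKM values, and their counts by the Ensembl identifier of the same row. Of 10 genes on the list, 9 had a row among 27271 genes: PNPLA2, LIPE, MGLL, ABHD5, PLIN2, PLIN3, PLIN4, HILPDA and CIDEC. No row carried the name G0S2, an inhibitor of the PNPLA2 lipase, so it was not analysed here. The cells were labelled wild type, came from goats aged 3 days and were kept in adipose induction medium with 50 μmol/L oleic acid for 48 h in both groups. The control groups received a negative control siRNA (NC, n = 3) and the silenced groups an siRNA against LIPG, which codes for endothelial lipase (Si-LIPG, n = 3). The study's methods call its replicates biological, and neither they nor the labels say whether the 3 libraries of a group came from separate animals or from cultures of the same cells. Poly(A) RNA was sequenced, and the question was how silencing LIPG changed the transcripts of these cells.

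A lipid droplet is a core of triglyceride and cholesteryl ester under a single layer of phospholipid, to which coat proteins bind. Perilipins and CIDE proteins sit on this surface and limit the access of lipases or move lipid between droplets. Stored triglyceride is cut in sequence: PNPLA2 (adipose triglyceride lipase, ATGL) with its co-activator ABHD5 removes the first fatty acid, LIPE (hormone-sensitive lipase, HSL) the next, and MGLL releases the last from monoglyceride. In adipocytes cyclic AMP and protein kinase A switch this series on and insulin switches it off, while PLIN2 is known as the coat protein of cells that are only beginning to store lipid. The reference tables used here held no transcript, promoter or protein sequence, so none is shown.

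Most of these genes had few counted reads, which limited what could be seen of them. The files held 36451898 to 52638817 reads per library, of which 524776 to 703680 were counted on genes in the NC libraries and 864882 to 1051230 in the Si-LIPG libraries. The counted share was 1.31% ± 0.279 (SD, n = 3) in NC and 2.44% ± 0.566 (SD, n = 3) in Si-LIPG, and reads on no gene made up 91.6% to 93.7% of each library. The library protocol marks the strand of each read, and the strand setting of the counting is not given in the sources used here. ND6, which lies on the strand opposite to the other protein-coding genes of the mitochondrial genome, had, per kb, 54.2 to 99.3 times the median count of the 12 others in NC and 22.6 to 49.8 times in Si-LIPG. Whether the reads counted on a gene came from its own strand or from the opposite one was not tested, and this applies to every value below. LIPG itself had counts of 0, 2 and 0 in NC and 0, 2 and 2 in Si-LIPG. Each is under the 3 counts that a count of 0 allows, so that its silencing could not be checked in these counts. The study reports the knockdown by RT-qPCR and Western blot.

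Among cell type markers, 12 of 15 mesenchymal genes had enough counts to be tested, with FN1, COL1A1 and VIM in every library. After TMM normalization 2 of the 12 rose and 1 fell (fold change over 1.5 and unadjusted p under 0.05). This criterion was met by 20.7% of all tested genes in either direction. LUM, a matrix proteoglycan, rose by a log2 fold change of 1.71 (edgeR adjusted p = 0.0395) and DCN, another, by 0.87 (adjusted p = 0.228), while ENG, a surface receptor of stromal cells, fell by 1.07 on the log2 scale (adjusted p = 0.0844) and was at 0.44 over all reads. The part of these markers in the member results below was not tested. The summed mesenchymal level was 62386 to 80877 CPM (counts scaled to the size of the library, here the counted reads adjusted by TMM) in NC and 77477 to 100335 in Si-LIPG. Of 12 adipocyte markers only CIDEA could be tested: LPL, CD36 and PCK1 were at 0 in all 6 libraries, ADIPOQ was counted only in Si-LIPG 2 (4 counts) and PLIN1, the perilipin of mature fat cells, had 0 to 4 counts per library. The summed adipocyte level was 9.73 to 66.6 CPM in NC and 21.9 to 36.1 in Si-LIPG. Of 12 myogenic markers 5 were tested, MYOD1 among them, with a sum of 405 to 509 CPM in NC and 410 to 519 in Si-LIPG. Of 8 endothelial markers 1 was tested, ERG, and 4 had no count. Their sum was 19.5 to 41.4 CPM in NC and 24.8 to 60.9 in Si-LIPG. Of 8 macrophage markers 0 were tested and 3 had no count, with a sum of 33.1 to 58.4 CPM in NC and 22.0 to 37.2 in Si-LIPG. In bulk RNA, fewer cells of a type and less RNA per cell cannot be told apart.

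PNPLA2 was the member with the most counts and PLIN2 the member with the highest level per length in 4 of the 6 libraries. PNPLA2 was lower in Si-LIPG by a log2 fold change of -1.28 when libraries were scaled to the reads counted on genes, and this fall was absent when they were scaled to all reads. PLIN2 and PLIN3 did not pass the test on either scale. The other 6 genes had from 2 to 39 counts over all 6 libraries and did not pass the filter on low counts. The plot of raw counts shows how few reads carry most of these genes.

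**Figure D1:**
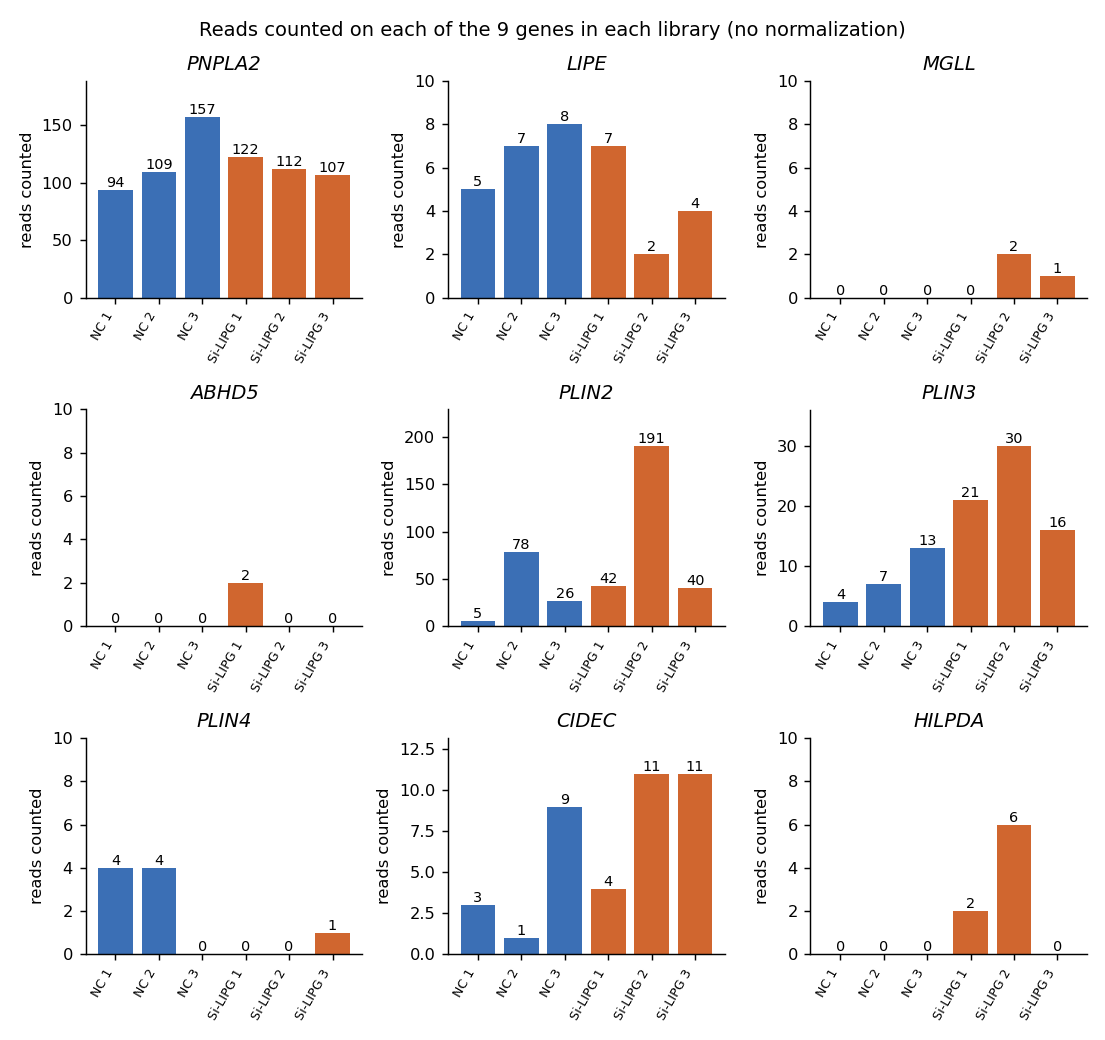
Reads counted on each of the 9 genes, with libraries on the horizontal axis (blue for NC, orange for Si-LIPG) and raw counts on the vertical axis, which differs between panels. PNPLA2 had 94 to 157 counts in every library, PLIN2 ranged from 5 to 191, and MGLL, ABHD5 and HILPDA had no count in NC.

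PNPLA2 (ENSCHIG00000024083) codes for the lipase that starts triglyceride breakdown. In the order of library number, its counts were 94, 109 and 157 in NC and 122, 112 and 107 in Si-LIPG. The raw counts overlapped between the groups, and counting error alone gives a 95% Poisson interval of 76.0 to 115 for the lowest of them and 133 to 184 for the highest. FPKM, a count per kb of gene length and per size of the counted library, was 25.7, 26.0 and 32.1 in NC and 20.3, 16.4 and 14.6 in Si-LIPG. TMM normalization, which assumes that most genes keep their level between libraries, gave 305, 196 and 247 CPM in NC and 138, 91.3 and 78.2 CPM in Si-LIPG. On both of these scales every Si-LIPG library lay below every NC library, as did 13.4% of the 6574 tested genes in TMM-normalised CPM.

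The TMM-normalised level of PNPLA2 was 249.5 ± 54.3 CPM (SD, n = 3) in NC and 102 ± 31.3 CPM (SD, n = 3) in Si-LIPG. Its log2 fold change was -1.28 (standard error 0.34, 95% interval -2.0 to -0.57), with an adjusted p of 0.040 by edgeR's quasi-likelihood test with Benjamini-Hochberg adjustment over 6574 genes. By p-value PNPLA2 stood at rank 281 of these genes. It was the 1 gene of the 3 tested members that met the study's criterion of a fold change over 1.5 and an unadjusted p under 0.05. The same criterion was met by 20.7% of all tested genes, 12.9% with a lower and 7.83% with a higher level in Si-LIPG. An adjusted p under 0.05 was reached by 6.51% of the tested genes, 5.54% of all being lower, so that a fall of this kind was not rare. The spread of PNPLA2 within groups was small, an SD of 0.37 in log2 CPM that was below that of most genes (percentile 18.6). The adjusted p stayed under 0.05 when Si-LIPG 1 was left out (0.0129) and was 0.0597 to 0.272 when NC 1, NC 2, NC 3, Si-LIPG 2 or Si-LIPG 3 was left out, while the log2 fold change stayed between -1.59 and -1.09. Without NC 1, NC 2, Si-LIPG 2 or Si-LIPG 3 the adjusted p was under 0.05 for 0 of all the genes tested in edgeR, while 871 to 1616 of them met the criterion.

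Scaled to all reads in the files, PNPLA2 was at 1.79, 2.56 and 3.41 CPM over all reads in NC and at 2.54, 3.00 and 2.94 in Si-LIPG. These groups overlapped, with means of 2.58 ± 0.811 (SD, n = 3) and 2.82 ± 0.248 (SD, n = 3). The log2 fold change on this scale was 0.13 (95% interval -0.79 to 1.05, edgeR adjusted p = 0.812). The median log2 fold change of all tested genes moved from 0.16 with TMM to 1.58 over all reads, where 46.1% of the tested genes met the criterion. Relative to this median PNPLA2 was at -1.44 with TMM and -1.46 over all reads. A change of scale moves all genes of a library together, so the distance of a gene to the median is largely kept. The 2 values are therefore not separate results. ND6 had 944 ± 116 CPM over all reads in NC and 896 ± 67.6 in Si-LIPG (SD, n = 3), and 99907 ± 50578 and 33835 ± 16295 CPM after TMM normalization (SD, n = 3). Which scale gives the amount of PNPLA2 RNA per cell cannot be told from these files. By RT-qPCR the study reports a rise of ATGL (PNPLA2) mRNA after LIPG knockdown, opposite to the fall seen here with TMM.

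The gene length behind the FPKM of PNPLA2 was 6957 bases, while RefSeq gives the gene a span of 5753 bases in the goat assembly ARS1.2. The files therefore use a gene model longer than this span by 1204 bases. In RefSeq the nearest gene, CRACR2B, lies 571 bases away and RPLP2, a ribosomal protein gene, lies 2707 bases away. No row carried the name CRACR2B. RPLP2 was counted 21, 28 and 29 times in NC and 17, 60 and 42 times in Si-LIPG, and its TMM-normalised CPM overlapped between the groups. The part of reads from a neighbouring gene in the PNPLA2 count was not tested.

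**Figure D2:**
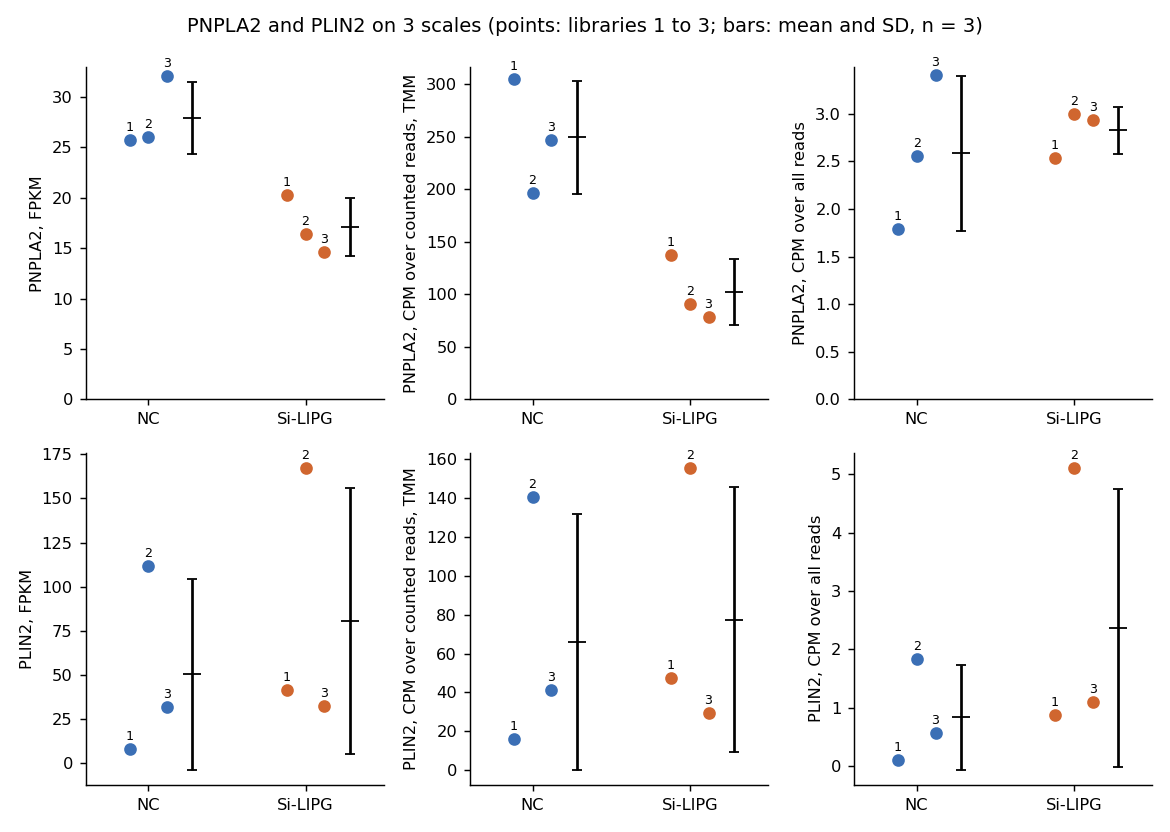
PNPLA2 (top) and PLIN2 (bottom) as FPKM, as TMM-normalised CPM over counted reads and as CPM over all reads, with groups on the horizontal axis, numbered points for libraries and bars for the mean and SD (n = 3). For PNPLA2 the groups are apart on the first 2 scales and overlap on the third, where NC reached 3.41 and Si-LIPG 3.00, and for PLIN2 library 2 is the highest of its group on all 3 scales.

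The other genes of the lipolytic series were at the edge of detection. LIPE codes for the lipase that acts on diglyceride and was counted 5, 7 and 8 times in NC and 7, 2 and 4 times in Si-LIPG. Its FPKM was 3.96, 4.83 and 4.72 in NC and 3.36, 0.845 and 1.58 in Si-LIPG. The groups did not overlap in FPKM or in TMM-normalised CPM, at 13.8 ± 2.08 and 4.15 ± 3.31 (SD, n = 3), and they overlapped when scaled to all reads. The groups of 13.4% of the 6574 tested genes were apart in this direction by TMM-normalised CPM. LIPE was not tested in the comparison because of its low counts. With no filter on low counts its log2 fold change was -1.63 (standard error 1.2), with an adjusted p of 0.576 by edgeR's quasi-likelihood test. MGLL, the monoglyceride lipase, had 3 counts in all, 2 in Si-LIPG 2 and 1 in Si-LIPG 3. ABHD5, the co-activator of PNPLA2, had 2 counts, both in Si-LIPG 1. Neither exceeded the 3 counts that a count of 0 allows, so that no difference was detectable and no fold is given for MGLL or ABHD5.

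PLIN2 (ENSCHIG00000013839), the perilipin found on droplets of most cell types, varied more between libraries of a group than between the groups. It was counted 5, 78 and 26 times in NC and 42, 191 and 40 times in Si-LIPG. Its FPKM was 8.20, 112 and 31.8 in NC and 41.8, 167 and 32.7 in Si-LIPG. Library 2 was the highest in both groups, which held for 11.4% of the tested genes. The counting intervals of NC 1 (1.62 to 11.7 counts) and NC 2 (61.7 to 97.3 counts) did not meet. The SD of log2 CPM within groups was 1.34, higher than for most genes (percentile 92.8).

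TMM-normalised PLIN2 was 65.9 ± 65.8 CPM in NC and 77.4 ± 68.3 CPM in Si-LIPG (SD, n = 3). Its log2 fold change was 0.19 (standard error 0.66, 95% interval -1.21 to 1.60, edgeR adjusted p = 0.909), an interval that holds both a fall and a rise of more than 2-fold. Scaled to all reads, the log2 fold change was 1.51 (95% interval -0.61 to 3.63, adjusted p = 0.217), and the groups overlapped, at 0.0950, 1.83 and 0.564 in NC and 0.874, 5.11 and 1.10 in Si-LIPG. The TMM-based value changed sign when NC 1, NC 3 or Si-LIPG 2 was left out, from 1.35 without NC 2 to -0.83 without Si-LIPG 2. The adipocyte markers mostly had few counts and differed in the library where their count was highest. FABP4, a fatty acid carrier of fat cells, had its highest count in library 2 of each group, with 0, 6 and 0 counts in NC and 2, 8 and 0 in Si-LIPG. CEBPA had 0, 10 and 0 counts in NC and 4, 4 and 1 in Si-LIPG, and ADIPOQ was counted only in Si-LIPG 2. CFD had 0, 0 and 3 counts in NC and 2, 0 and 0 in Si-LIPG. CIDEA, the adipocyte marker that could be tested, had 1, 15 and 24 counts in NC and 14, 9 and 19 in Si-LIPG, with its lowest Si-LIPG count in library 2. The part of fat cell content in the level of PLIN2 was not tested.

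PLIN3 (ENSCHIG00000023756), a perilipin that moves from the cytosol to new droplets, was counted 4, 7 and 13 times in NC and 21, 30 and 16 times in Si-LIPG. Every Si-LIPG library had more counts than every NC library, and also more reads counted on genes. Its FPKM was 5.25, 8.01 and 12.7 in NC and 16.7, 21.0 and 10.5 in Si-LIPG, so that the groups overlapped once this was scaled. TMM-normalised levels were 15.4 ± 4.45 and 19.9 ± 7.16 CPM (SD, n = 3), with a log2 fold change of 0.35 (standard error 0.68, 95% interval -1.11 to 1.80, edgeR adjusted p = 0.832). Leaving out single libraries moved this value between 0.16 (without Si-LIPG 1) and 0.64 (without Si-LIPG 3). Scaled to all reads, PLIN3 was at 0.0760, 0.164 and 0.282 CPM over all reads in NC and 0.437, 0.803 and 0.439 in Si-LIPG without overlap, as were 51.9% of all tested genes, and its log2 fold change of 1.67 had an adjusted p of 0.115. Relative to the median of all tested genes it was at 0.19 with TMM and 0.09 over all reads.

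PLIN4, a perilipin of white fat and muscle, was counted 4, 4 and 0 times in NC and 0, 0 and 1 times in Si-LIPG. RefSeq places a gene without a symbol of its own 271 bases from PLIN4 and PLIN5 2849 bases away, and PLIN5 had 1 count in all. CIDEC, which passes lipid from smaller to larger droplets, was counted 3, 1 and 9 times in NC and 4, 11 and 11 times in Si-LIPG, with an FPKM of 10.0 ± 8.42 and 13.1 ± 5.38 (SD, n = 3). The groups overlapped for CIDEC on every scale, and a non-coding RNA gene overlaps it in RefSeq. HILPDA, a small droplet protein that inhibits PNPLA2 and is induced by low oxygen and by fatty acids, had no count in NC and 2, 6 and 0 counts in Si-LIPG. Set against 3 counts over the NC group, HILPDA was at least 1.15-fold higher in Si-LIPG by TMM-normalised CPM and at least 3.09-fold higher when scaled to all reads, with 6 of its 8 counts in Si-LIPG 2. These bounds allow for counting error in NC only, and with no filter on low counts HILPDA had an adjusted p of 0.550 by edgeR's quasi-likelihood test. Without that library its 2 counts were under the limit that a count of 0 allows.

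Since the direction of a single gene depended on the scaling, members were also set against each other within each library, where scaling has no part. PNPLA2 took 81.7%, 52.9% and 73.7% of the reads counted on the 9 genes in NC and 61.0%, 31.6% and 59.4% in Si-LIPG. The groups overlapped, with exact binomial (Clopper-Pearson) 95% intervals of 45.9% to 59.9% in NC 2 and 53.9% to 67.8% in Si-LIPG 1. The mean share was 69.5% ± 14.9 in NC and 50.7% ± 16.5 in Si-LIPG (SD, n = 3; two-sided exact permutation test, p = 0.3, where 0.1 is the smallest p that 3 libraries against 3 allow). PLIN2 took 4.35%, 37.9% and 12.2% in NC and 21.0%, 54.0% and 22.2% in Si-LIPG (two-sided exact permutation test, p = 0.4, n = 3 per group). The plot of shares shows the largest PLIN2 share and the lowest PNPLA2 share in library 2 of each group. As the shares of a library add up to a whole, a larger PLIN2 share lowers that of PNPLA2 without any change in its count. The PNPLA2 counts of library 2, 109 in NC and 112 in Si-LIPG, lay between those of the other libraries of their group.

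**Figure D3:**
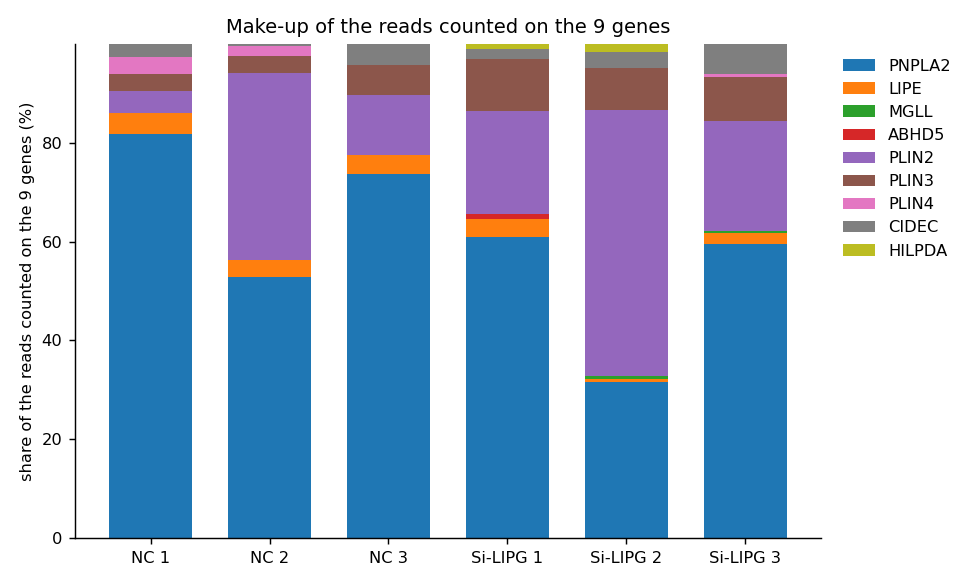
Share of each gene in the reads counted on the 9 genes (vertical axis, %), stacked by gene for each library. PNPLA2 made up 52.9% to 81.7% in NC and 31.6% to 61.0% in Si-LIPG, and PLIN2 made up most of the rest in library 2 of both groups.

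The ratio of PNPLA2 to PLIN3 counts was 23.5, 15.6 and 12.1 in NC and 5.81, 3.73 and 6.69 in Si-LIPG. This was the 1 ratio of 3 between the tested members in which the groups did not overlap, and it was computed after the data were seen. The log2 ratio was 4.04 ± 0.485 in NC and 2.39 ± 0.439 in Si-LIPG (SD, n = 3), a difference of -1.64 with the smallest possible p (two-sided exact permutation test, p = 0.1, adjusted p = 0.3 over the 3 ratios). PNPLA2 to PLIN2 ratios were 18.8, 1.40 and 6.04 in NC and 2.90, 0.586 and 2.67 in Si-LIPG (two-sided exact permutation test, p = 0.3, n = 3 per group). PLIN2 to PLIN3 ratios were 1.25, 11.1 and 2 in NC and 2, 6.37 and 2.50 in Si-LIPG (two-sided exact permutation test, p = 1, n = 3 per group).

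Per length, the order of the members differed between libraries. In NC 1 PNPLA2 led with 25.7 FPKM over CIDEC with 8.55 and PLIN2 with 8.20. In NC 3 PNPLA2 and PLIN2 were level at 32.1 and 31.8 FPKM, and in NC 2 and all Si-LIPG libraries PLIN2 led. In Si-LIPG 2 HILPDA, with a length of 216 bases in the files, came next at 28.3 FPKM on 6 counts. Among all genes with a count, PNPLA2 stood at percentiles 84.0 to 87.4 of FPKM in NC and 67.1 to 78.8 in Si-LIPG. PLIN2 stood at percentiles 72.7 to 95.7 in NC and 82.3 to 96.7 in Si-LIPG, and PLIN3 at 64.2 to 73.3 and 59.5 to 75.6. PLIN3 and CIDEC did not differ in FPKM beyond their spread in either group.

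The genes whose profile over the 6 libraries was most like that of PNPLA2 were a row named after a retrogene of ribosomal protein S23 (ENSCHIG00000026291), LARGE2 and CTSW. Their root mean square difference in centred log2 CPM was 0.117, 0.119 and 0.124, against a median of 0.980 over all tested genes. For PLIN2 they were ARMC6 at 0.426, an unnamed gene (ENSCHIG00000016369) at 0.446 and BLMH at 0.496, against a median of 1.23.

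Beyond the members, 38 gene symbols of droplet coat and assembly were examined, of which 35 had a row, 2 of these no count, and 20 could be tested. After TMM normalization 4 rose and 1 fell by the criterion, against 20.7% of all genes in either direction, and the median log2 fold change was 0.55 against 0.16 over all tested genes. GBF1, the exchange factor that loads the small GTPase ARF1 and so recruits the COPI coat to droplets, was counted 6, 24 and 20 times in NC and 94, 141 and 148 times in Si-LIPG. Its groups did not overlap after TMM normalization and its log2 fold change was 1.76 (standard error 0.39, edgeR adjusted p = 0.0395), the 1 gene of the list with an adjusted p under 0.05. This adjusted p was 0.0267 to 0.253 when single libraries were left out, and was over 0.05 without NC 1, NC 2, Si-LIPG 2 or Si-LIPG 3, the same 4 fits in which no tested gene had an adjusted p under 0.05.

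VMP1, a membrane protein of the endoplasmic reticulum needed for droplet and lipoprotein release, had a log2 fold change of 1.75 (edgeR adjusted p = 0.147). RAB18, a small GTPase of the droplet surface, was at 1.59 (adjusted p = 0.203) and COPB2, a COPI subunit, at 0.88 (adjusted p = 0.178). The groups of VMP1, RAB18 and COPB2 did not overlap in TMM-normalised CPM, which held for 15.2% of all tested genes in the higher direction. In RefSeq VMP1 overlaps a gene without a symbol of its own and COPB2 a transfer RNA gene. CIDEB, the CIDE protein known from liver, was the gene that fell, with counts of 61, 72 and 32 in NC and 49, 50 and 34 in Si-LIPG. Its log2 fold change was -1.63 (standard error 0.48, edgeR adjusted p = 0.0563), its groups overlapped, and it overlaps NOP9, LTB4R and LTB4R2 in RefSeq, so that its counts are uncertain. CIDEA, of the same family, was at -0.95 (standard error 0.77, adjusted p = 0.548).

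Scaled to all reads, 15 of the 20 tested droplet genes rose and 0 fell by the criterion in edgeR, where 46.1% of all tested genes rose, with a median of 1.96 against 1.58 over all genes, and CIDEB was at -0.11. GBF1 was higher and CIDEB lower than the median gene on both scales, GBF1 by 1.60 and 1.56 and CIDEB at -1.79 and -1.69. These distances are largely kept by the change of scale itself. After TMM normalization 2 genes of the list met the criterion without Si-LIPG 2 and 3 without Si-LIPG 1. In the same fits 888 of 6709 and 1444 of 7182 tested genes met it, against 1361 of 6574 with all libraries.

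Of 44 genes of lipolysis control, from adrenergic receptors to protein kinase A and insulin signalling, 37 had a row, 4 of these no count, and 17 could be tested. After TMM normalization 2 rose and 1 fell by the criterion, against 20.7% of all tested genes in either direction, with no adjusted p under 0.05 by edgeR and a median log2 fold change of 0.15 against 0.16. GNAI3 and GNAI2, the inhibitory G protein subunits that lower cyclic AMP, were at 2.01 (standard error 0.74, edgeR adjusted p = 0.121) and 0.67 (standard error 0.30, adjusted p = 0.215). GNAI3 was counted 0, 8 and 12 times in NC and 14, 84 and 89 times in Si-LIPG, with overlapping groups after TMM normalization, and it overlaps GNAT2 in RefSeq. GNAI2 was at 117, 135 and 140 CPM in NC and 204, 218 and 204 CPM in Si-LIPG without overlap, which held for 15.2% of all tested genes in this direction. GNAI2 missed the criterion when any single library was left out and with DESeq2 size factors in edgeR. ADCY3, an adenylyl cyclase that makes cyclic AMP, was at 279, 130 and 91.4 CPM in NC and 126, 72.5 and 61.4 CPM in Si-LIPG, with a fall of 0.92 in log2 (standard error 0.43, edgeR adjusted p = 0.241), and it overlaps CENPO in RefSeq. Without NC 1 its log2 fold change was -0.37, and it missed the criterion with upper quartile factors and in DESeq2. Scaled to all reads, 9 of the 17 genes met the criterion, all higher, against 46.1% of all tested genes, the 17 had a median of 1.48 against 1.58, and ADCY3 was at 0.61. No gene of the list met the criterion without Si-LIPG 2 or without Si-LIPG 3, and 1 did without NC 2. In these fits, in the same order, 888 of 6709, 871 of 6654 and 1616 of 7636 tested genes met it. With all libraries it was 1361 of 6574.

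**Figure D4:**
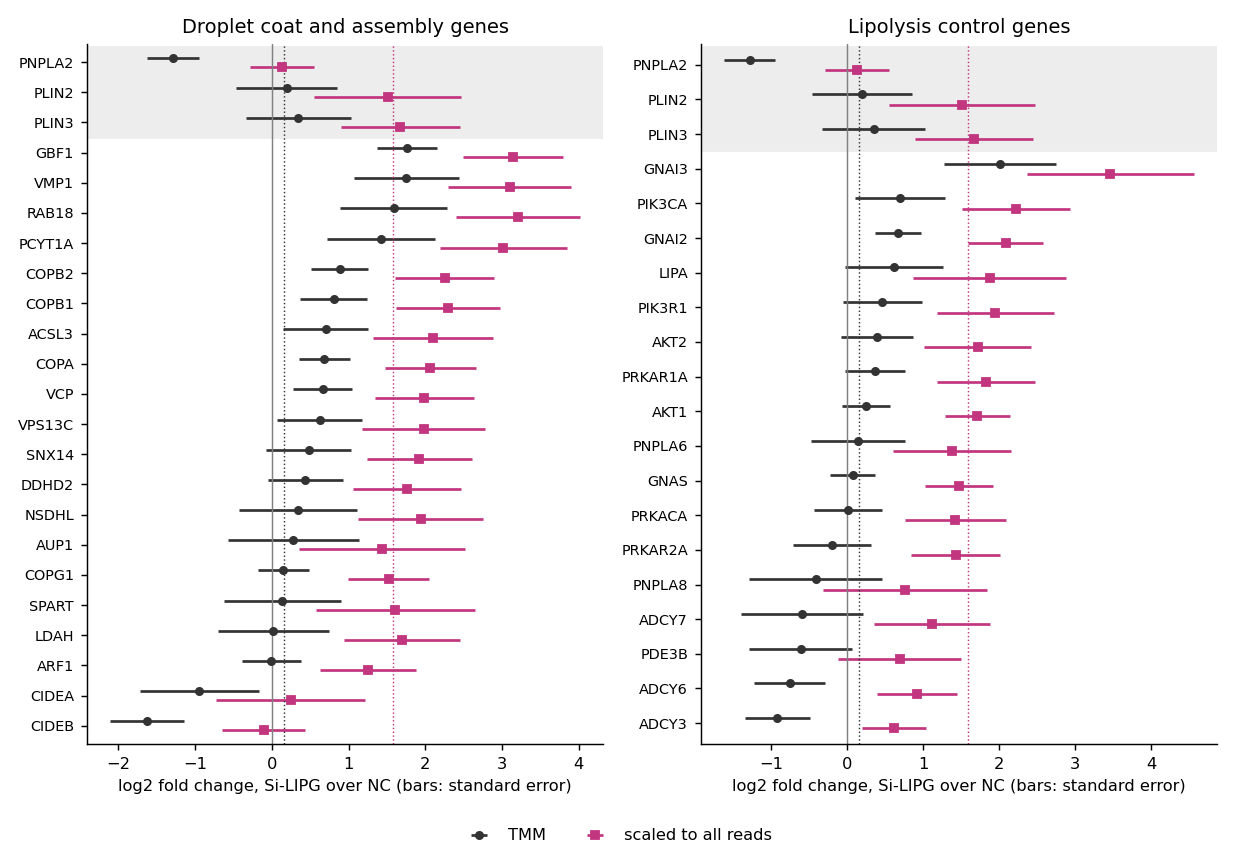
Log2 fold change (Si-LIPG relative to NC) for tested genes of droplet assembly (left) and lipolysis control (right), with the 3 tested members in the grey band, after TMM normalization (black circles) and scaled to all reads (magenta squares); bars are standard errors and dotted lines the medians of all tested genes, 0.16 and 1.58. PNPLA2 and CIDEB lie below the median gene and GBF1 above it on both scales, distances that the change of scale largely keeps. PNPLA2 changes from -1.28 to 0.13 between the scales.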

How the data were processed

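RNA-seq of 3 NC and 3 Si-LIPG libraries was used, grouped by sample title. The authors deposited counts per gene in 1 file per library, without normalization, with 5 further rows that name no gene. These rows entered neither library sizes nor tests. The authors deposited FPKM values of the same genes in 1 table, with names for 18989. The submitters' processing notes name fastp, HISAT2, SAMtools and HTSeq; versions, genome build and strand setting are not given in the sources used here.

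After filterByExpr (6574 genes) and TMM normalization, groups were compared with the quasi-likelihood test of edgeR 4.0.16 in R 4.3.3, without covariates, with Benjamini-Hochberg adjustment over the tested genes. The study's criterion was used: unadjusted p under 0.05 and fold change over 1.5. Alternatives included DESeq2 1.42.0, the tool the study names, and limma 3.58.1 on FPKM. The prior count of log2 CPM values was 2. Where a count was 0, up to 3 counts were held possible; this and the 95% intervals cover counting error only. Replicate libraries differed by more than sampling noise (4.21 to 12.5 in chi-square over its degrees of freedom). In counts simulated for this comparison with 200 changed genes (5969 genes tested), edgeR called 56 genes by adjusted p, 0 of them falsely, and found 4.44% of 2-fold and 47.3% of 4-fold changes. The simulated counts held no shift common to most genes, so the choice of scaling was not tested by them.

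The members and lists were chosen with earlier results of these data known. All members were named, up to 6 genes per pathway list at the criterion by smallest p, and the 3 nearest profiles of the 2 tested members with the most counts. Neighbouring genes came from RefSeq ARS1.2, without coordinates, since the files' build is not known. Alternatives were other scalings and filters, DESeq2, limma, a replicate block and leaving out each library. Figures were drawn with matplotlib 3.10.9.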

Additional observations from a re-analysis of the deposited data

How the results depend on the processing

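The members meeting the criterion numbered 1 (PNPLA2) in the comparison as reported, and 0 with library sizes alone, scaled to all reads and in limma on log2(FPKM + 1) and log2(FPKM + 0.1); the number with an adjusted p under 0.05 was likewise 0 in these 4, where 123 of all genes with library sizes alone, 750 scaled to all reads and 0 in both limma fits had one. DESeq2 gave 2, PNPLA2 (log2 fold change -1.28, DESeq2 adjusted p 0.00791) and PLIN4, whose 9 counts had an unadjusted DESeq2 p of 0.0465 and no adjusted one. PNPLA2 was at -0.69 with library sizes alone, 0.13 scaled to all reads, and -0.68 and -0.71 in limma. In the other fits of all 6 libraries it was between -1.33 and -1.01, and without single libraries between -1.59 and -1.09. Leaving out each library gave 1 member at the criterion each time (1 to 1), 0 to 1 with an adjusted p under 0.05, and for PLIN2 -0.83 to 1.35, with -0.24 without NC 1, -0.10 without NC 3 and -0.83 without Si-LIPG 2. ADCY3 was at 0.61 scaled to all reads.

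The droplet list had 5 of 20 tested genes at the criterion, and 8 of 20 with library sizes alone and in limma on log2(FPKM + 1). It had 8 of 33 with no filter, 15 of 20 scaled to all reads and 2 to 7 without single libraries. The lipolysis control list had 3 of 17, and 9 of 17 scaled to all reads. It had 1 of 8 with at least 10 counts in every library and 0 to 4 without single libraries. Of all tested genes 1361 of 6574 met the criterion. Of the same 6574 it was 1983 with library sizes alone, 1912 in limma on log2(FPKM + 1) and 3032 scaled to all reads. With no filter it was 2044 of 14848, and with at least 10 counts in every library 1066 of 2757. Without single libraries it was 871 (without Si-LIPG 3) to 1692. The difference in the PNPLA2 share, -18.8 percentage points, was -27.0 to -9.23 without single libraries and -17.2 in shares of FPKM. The log2 ratio difference of PNPLA2 to PLIN3 was -1.86 to -1.38 without single libraries, that of PNPLA2 to PLIN2 -2.68 to -0.81 and that of PLIN2 to PLIN3 -0.57 to 1.00, with -0.57 without NC 1, -0.24 without NC 3 and -0.44 without Si-LIPG 2. The cause of these moves was not tested.

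Deviations of same-numbered libraries from their group means had correlations of 0.210, 0.0639 and 0.105. In both directions libraries 1 and 3 matched their own number best, and library 2 matched library 3 best. Whether the numbers mark pairs cannot be told from this, and the comparison as reported used no pairs. With a replicate block PNPLA2 was at -1.31 (edgeR adjusted p = 0.000235), 1 member, 7 droplet genes, 3 control genes and 1550 genes in all met the criterion, and 925 genes against 428 had an adjusted p under 0.05. As 6 of the 9 members had at most 39 counts, they were tested only in the fits with no filter and in DESeq2. The reason for their low counts was not tested.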
